A study of Mus musculus with 7 samples.

Results

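Interferon response genes were followed in the bladders of adult and newborn mice as a list of 39 genes, 37 of which were measured, among 18193 genes that had a probe set of their own on the array. The list held the interferon receptor chains, the transcription factors that act downstream of them, sensors of viral RNA, and genes that interferon induces. Each gene was represented by the probe set that the platform annotation assigns to it alone, and by the one with the highest mean over all 7 arrays where there were several. The 37 genes had 58 such probe sets. Isg15, a ubiquitin-like modifier, was measured only by a probe set that also names Gm9706, so it was left out of all counts, and Ifi44 was not analysed here.

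The arrays held 3 adult bladders (Theiler stage 28), 3 bladders from postnatal day 1 (Theiler stage 27), and 1 pool of whole newborns, also of postnatal day 1. Both bladder groups came from male FVB/N mice carrying the SMGA/EGFP transgene, in which the promoter of smooth muscle gamma-actin drives enhanced green fluorescent protein, so the transgene is common to both stages. The pool joined 4 male and 4 female wild-type FVB/N newborns, and its label names bladders in the title but whole animals in the source and protocol, so it was read as whole animals. The entire bladder was taken by gross dissection, without sorting of cells. Adult bladders were snap frozen and kept in liquid nitrogen whereas newborn tissue was kept in a freezer, and effects of the storage cannot be told apart from those of age. The bladder samples were not pooled according to the labels, and nothing says how many litters they came from, so p-values describe only the spread between these samples, which may be partly technical. The ages of the adults are not given in the labels used here.

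Interferons are secreted signals that cells release on sensing a virus or, for interferon gamma, that activated lymphocytes release. Type I interferons bind the receptor of Ifnar1 and Ifnar2 and interferon gamma binds the receptor of Ifngr1 and Ifngr2, and receptor-bound Janus kinases then phosphorylate STAT proteins. Stat2 with Irf9 belongs to the complex that binds the interferon-stimulated response element (ISRE), while interferon gamma acts through the gamma-activated site (GAS). The genes switched on this way block virus entry, degrade or sequester viral RNA, attack vacuoles that hold microbes, and raise antigen presentation. In the bladder, urothelium, muscle and resident leukocytes can all respond.

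All values are intensities in the arbitrary units of the deposited table, and differences are on the scale of log2(intensity + 49), which understates the change of dim probe sets. Median intensities were 226 to 312 on the adult arrays, 209 to 290 on the postnatal day 1 arrays and 434 on the whole newborn array. Of 6 urothelial markers, 5 had log2 differences from the pool above 0 in either bladder stage. Of these 6, 4 were called higher in adult bladder (3.86% of all genes) and 3 in postnatal day 1 bladder (2.15%). All 6 smooth muscle markers had differences above 0, with 4 called higher in each stage. Upk3a, a uroplakin of the bladder lining, gave 28399, 32532 and 27535 in adult bladders. In postnatal day 1 bladders it gave 22535, 26812 and 36700.3, and in the whole newborn pool 548. Adult replicates 1 and 3 stood apart, since the summed intensity of 9 measured transcripts of male accessory glands was 10059 and 10145 there, 294 in adult replicate 2, 290.5 to 372 in postnatal day 1 bladders and 1169 in the whole newborn pool. The hybridization spike-ins were brightest on adult replicate 2, at 2.33 times the dimmest array, and among the newborn bladders on replicate 3, at 1.67 times. Arrays of whole bladders cannot tell fewer cells of a type from less RNA per cell.

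The start regions of the genes are shown first, since 5 of them are the genes that passed the test between the stages and the other 2 carry the same motifs without passing it. Windows of 300 bases, from 250 bases before to 50 bases after an annotated start, came from RefSeq on build GRCm38.p6, which is the reference strain and not FVB/N. They matched 31 of the 37 measured genes by symbol, with no entry for Dhx58, Oas2, Mx1, Mx2, Usp18 and Iigp1. Each window is written 5' to 3' on the strand of its gene, and capitals mark every match, on either strand, to the ISRE core GAAANNGAAA or to the GAS core TTCNNNGAA.
The first set holds the 5 genes that were higher in adult bladder: Irf1 (chr11:53769764-53770063, plus strand, the first of 2 windows), Ifih1 (chr2:62646206-62646505, minus strand), Ifit3 (chr19:34583279-34583578, plus strand), Gbp2 (chr3:142620413-142620712, plus strand) and Trim21 (chr7:102565433-102565732, minus strand).
Irf1: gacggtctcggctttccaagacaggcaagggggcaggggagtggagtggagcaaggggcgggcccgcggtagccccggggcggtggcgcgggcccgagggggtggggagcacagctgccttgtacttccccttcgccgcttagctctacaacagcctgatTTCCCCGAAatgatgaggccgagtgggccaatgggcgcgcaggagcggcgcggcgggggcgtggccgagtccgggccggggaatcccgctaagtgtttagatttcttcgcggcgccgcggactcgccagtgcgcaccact
Ifih1: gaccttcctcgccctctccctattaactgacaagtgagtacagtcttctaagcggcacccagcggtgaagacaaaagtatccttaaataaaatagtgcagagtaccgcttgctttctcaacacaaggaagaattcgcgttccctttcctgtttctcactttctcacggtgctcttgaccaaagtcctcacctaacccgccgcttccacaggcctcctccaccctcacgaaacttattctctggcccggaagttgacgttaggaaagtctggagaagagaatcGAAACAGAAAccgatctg
Ifit3: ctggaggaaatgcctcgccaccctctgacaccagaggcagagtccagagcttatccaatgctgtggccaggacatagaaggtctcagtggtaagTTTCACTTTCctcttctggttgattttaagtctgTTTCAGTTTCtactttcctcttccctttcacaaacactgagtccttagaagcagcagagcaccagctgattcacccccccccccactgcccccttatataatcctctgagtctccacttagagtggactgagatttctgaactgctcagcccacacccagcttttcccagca
Gbp2: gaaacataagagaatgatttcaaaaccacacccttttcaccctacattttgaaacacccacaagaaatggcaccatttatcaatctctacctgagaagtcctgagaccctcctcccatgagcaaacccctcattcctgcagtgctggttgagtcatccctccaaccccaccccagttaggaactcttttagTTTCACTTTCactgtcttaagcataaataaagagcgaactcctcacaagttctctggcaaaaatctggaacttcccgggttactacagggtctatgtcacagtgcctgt
Trim21: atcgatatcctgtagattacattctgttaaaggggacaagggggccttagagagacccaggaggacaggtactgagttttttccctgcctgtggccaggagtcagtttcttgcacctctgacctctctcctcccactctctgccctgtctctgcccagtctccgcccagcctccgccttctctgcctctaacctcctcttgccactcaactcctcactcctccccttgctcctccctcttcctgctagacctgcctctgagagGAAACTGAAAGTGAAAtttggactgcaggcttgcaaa
The second set holds 2 genes with several matches that did not pass the test between the stages: Ifitm3 (chr7:141010695-141010994, minus strand) and Bst2 (chr8:71537423-71537722, minus strand).
Ifitm3: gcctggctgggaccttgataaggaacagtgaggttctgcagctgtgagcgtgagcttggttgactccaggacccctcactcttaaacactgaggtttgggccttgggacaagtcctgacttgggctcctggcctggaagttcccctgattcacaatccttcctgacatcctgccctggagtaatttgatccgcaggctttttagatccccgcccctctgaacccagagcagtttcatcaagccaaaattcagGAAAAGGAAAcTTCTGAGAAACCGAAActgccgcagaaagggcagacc
Bst2: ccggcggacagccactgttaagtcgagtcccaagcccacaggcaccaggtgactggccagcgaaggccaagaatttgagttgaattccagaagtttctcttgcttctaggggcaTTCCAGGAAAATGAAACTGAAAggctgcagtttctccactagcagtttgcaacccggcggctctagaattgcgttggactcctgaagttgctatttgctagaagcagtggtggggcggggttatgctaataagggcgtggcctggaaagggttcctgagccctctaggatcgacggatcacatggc

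The ISRE letters, searched on both strands, were found in 16 of the 31 genes (51.6%), against 3.44% of all 32851 RefSeq windows of that length and 3.99% of 27025 genes. The GAS letters, which read the same on both strands, were found in 12 (38.7%), against 8.3% of windows and 9.55% of genes. Both motifs occurred in 5 genes, neither in 8, and 8 genes held more than 1 ISRE match, some of which overlap one another. Ifit3 had 2 ISRE matches on the opposite strand, which began 156 and 122 bases before the start. Gbp2 had 1, at 59 bases before it. Ifih1 and Trim21 had theirs after the start, at 33 bases in Ifih1 and at 14 and 20 bases in Trim21, where the matches overlap. Irf1 had no ISRE match in these windows and 1 GAS match, 90 bases before the start. Between adult and postnatal day 1 bladders the median log2 difference was 0.99 for the 16 genes with an ISRE match (-0.72 to 2.27) and 0.29 for the 15 without; for GAS it was 0.50 with and 0.42 without. The list holds known interferon targets, and a match is a description of the letters, not a site shown to be bound.

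**Figure D1:**
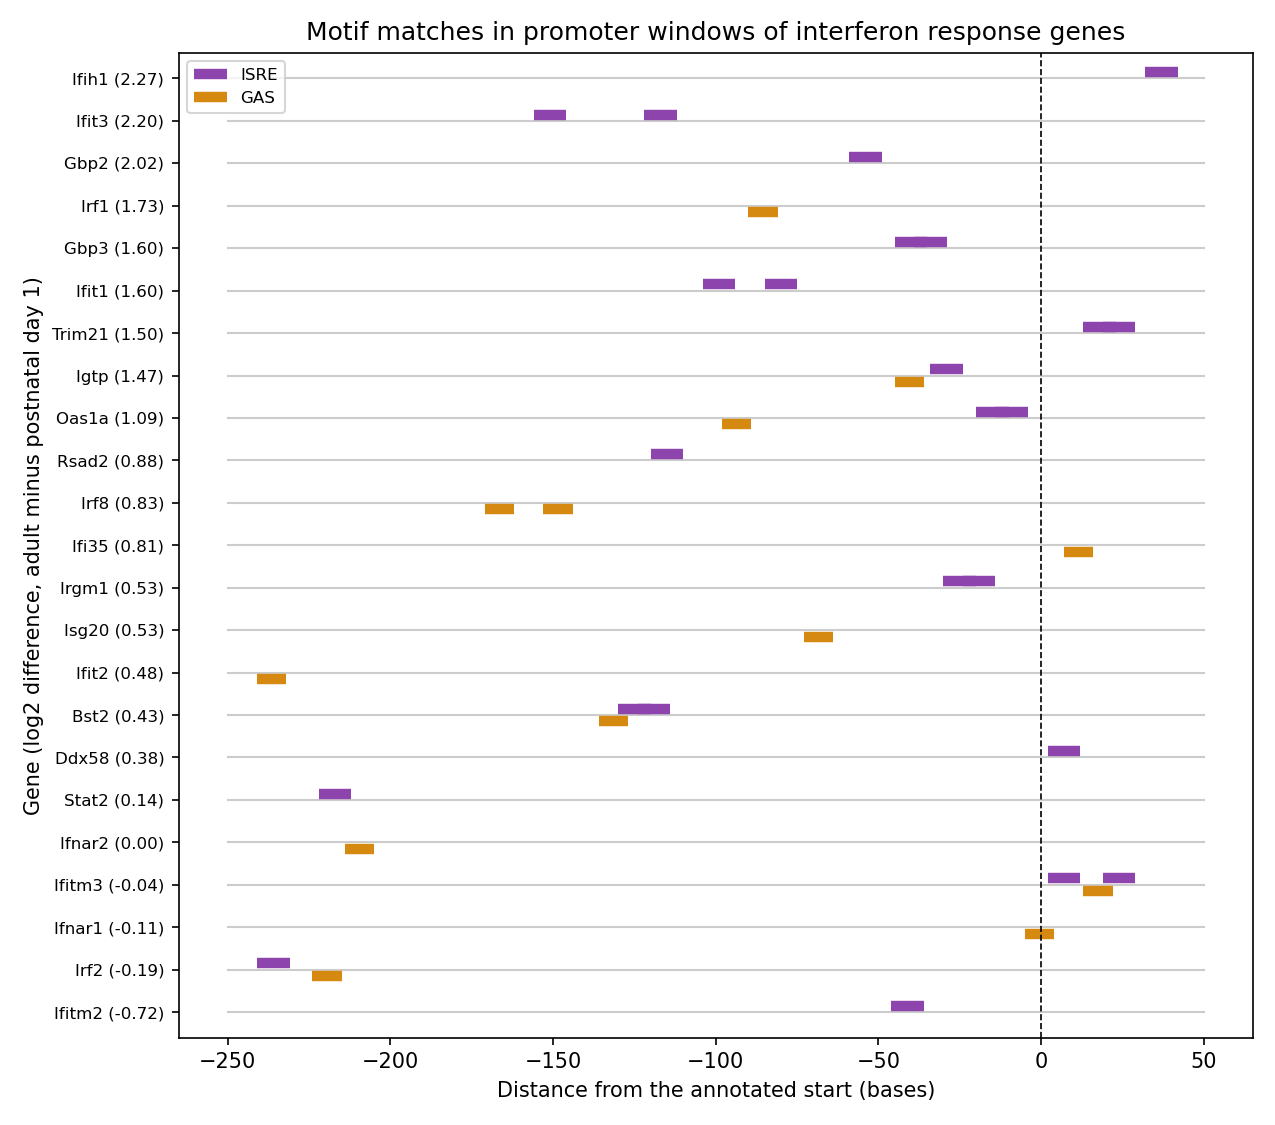
Positions of ISRE and GAS matches in the promoter windows of the genes that hold any, with the distance from the annotated start in bases on the horizontal axis and each gene's log2 difference, adult minus postnatal day 1 bladder, in brackets. The grey line is the searched window, and genes are ordered from the highest difference, Ifih1 at 2.27, to the lowest.

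Of the 37 interferon response genes, 5 were higher in adult than in postnatal day 1 bladder and none was lower. These were Irf1, Ifih1, Ifit3, Gbp2 and Trim21, at log2 differences of 1.50 to 2.27. They come from 5 different classes of the response: a transcription factor, an RNA sensor, an Ifit family effector, a GTPase and an antibody receptor. The 5 genes are 13.5% of the 37, whereas 1.75% of all 18193 genes were called higher in adult bladder, 2.39% lower and 4.13% in either direction (limma, Benjamini-Hochberg adjusted p under 0.05 over 45037 probe sets). The median log2 difference of the 37 genes was 0.43, against -0.03 over all genes, and 29 of the 37 were above 0. In 12 genes every adult array lay above every postnatal day 1 array, against 12.3% of all genes, and in none did every adult array lie below, against 14.1%. At an unadjusted p under 0.05, 12 genes were higher in adult bladder, against 9.73% of all genes, and 1, Ifitm1, was lower, against 10.6% (20.4% in either direction).

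The calls changed when single arrays were left out. Without adult replicate 1, without adult replicate 3 or without postnatal day 1 replicate 2, none of the 37 genes passed, while 55, 36 and 96 of all genes were still called higher. Without postnatal day 1 replicate 3, Irf1 and Gbp2 passed, with 0.698% of all genes called higher. Without adult replicate 2, Irf1, Ifit3, Trim21 and also Xaf1 passed, with 1.86% of all genes called higher, while Ifih1 and Gbp2 did not. Without postnatal day 1 replicate 1, Irf1, Ifih1, Gbp2 and also Igtp passed, with 0.737% called higher, while Ifit3 and Trim21 did not. Without the 2 arrays brightest in spike-ins, Irf1 and Ifih1 did not pass (adjusted p = 0.059 and 0.0971). With adult replicate 2 as the only adult array, which leaves out the arrays with accessory gland transcripts, the 5 genes were still 1.08 to 2.63 higher on the log2 scale, but none was called and neither was any other gene called higher. The direction of the 5 genes could not turn in these fits, because every adult value lay above every postnatal day 1 value. It is therefore no check on the calls.

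**Figure D2:**
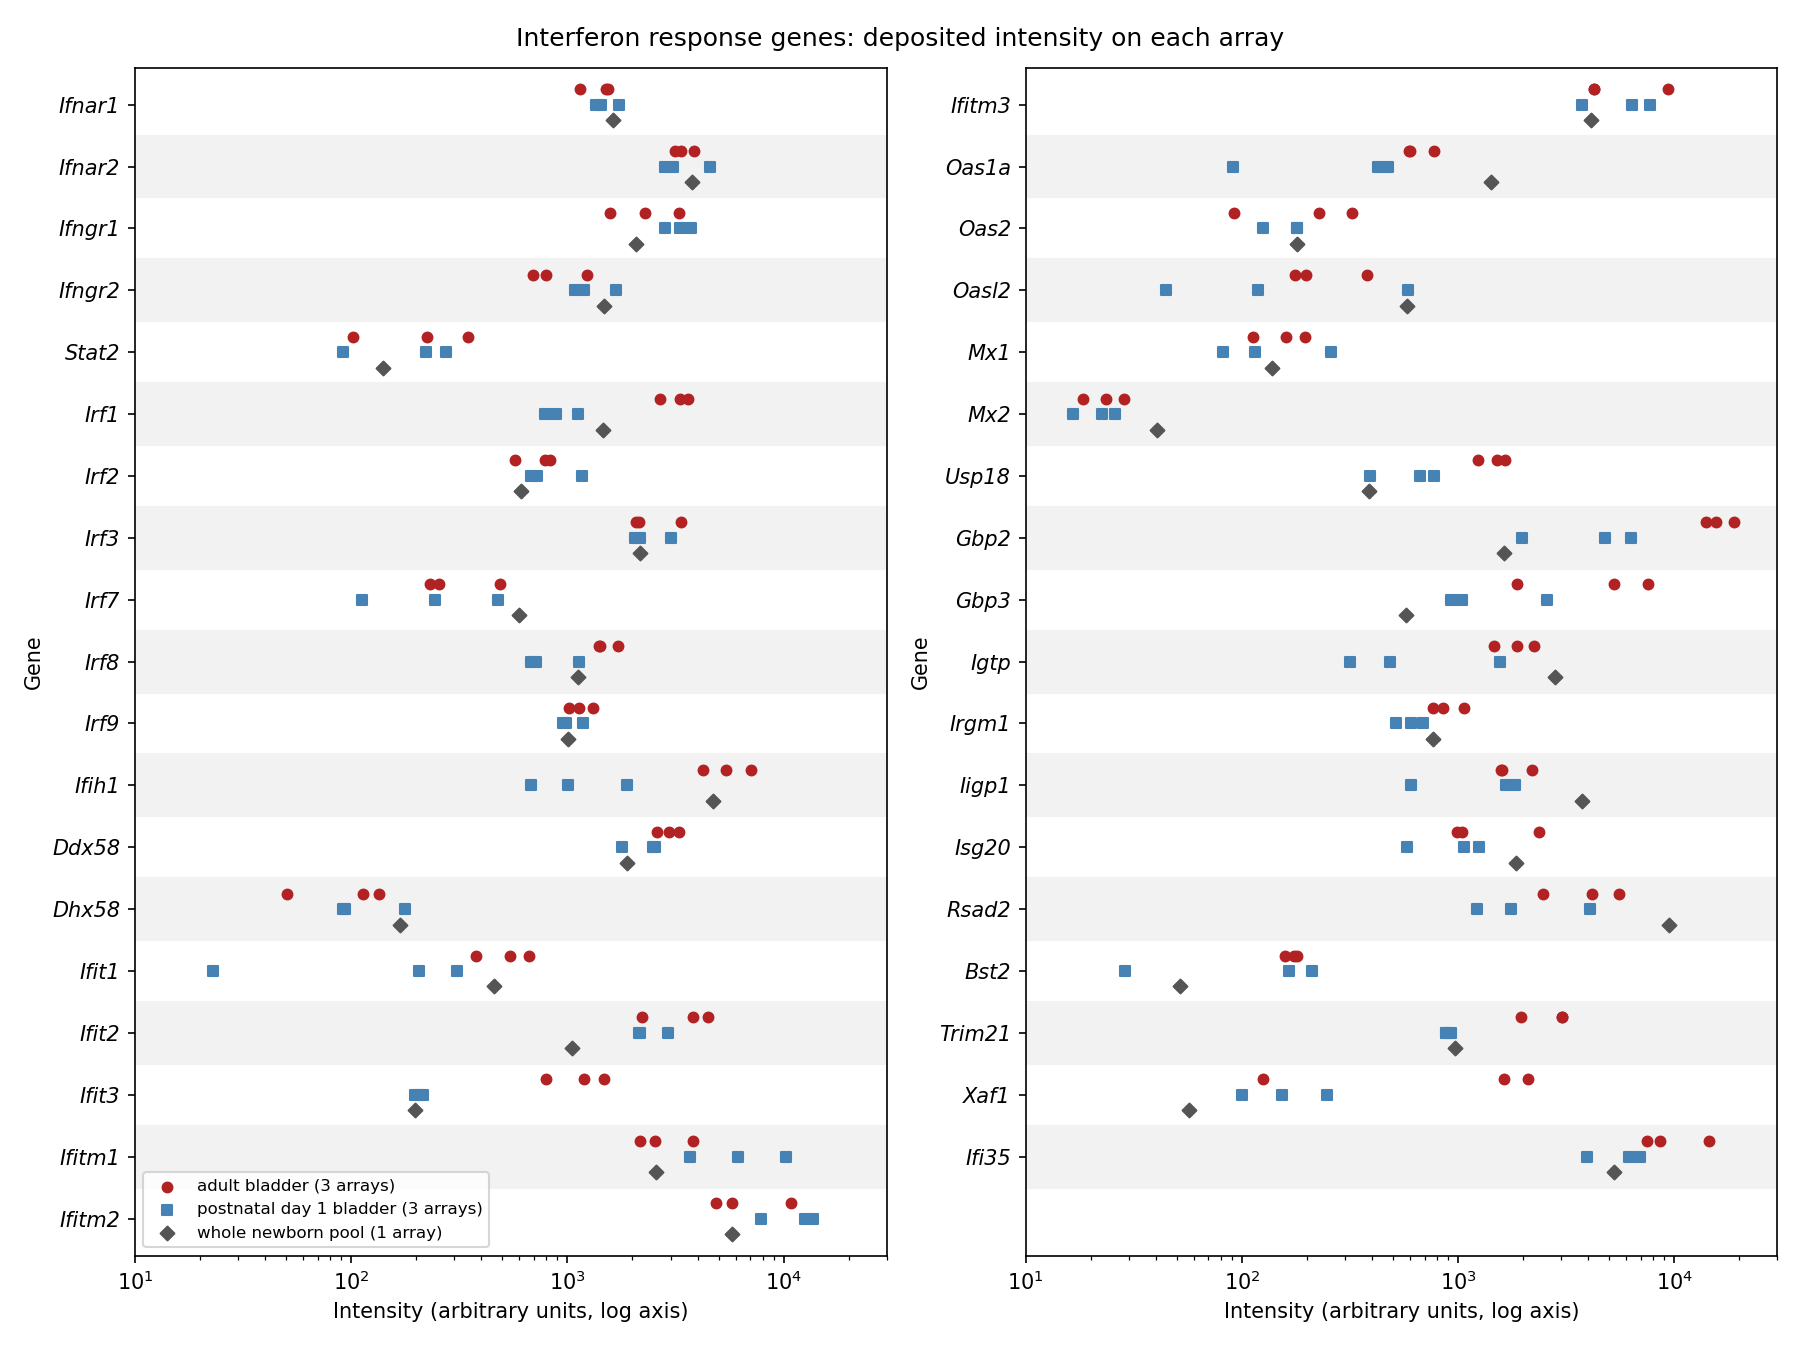
Deposited intensity of each of the 37 interferon response genes on each array, in arbitrary units on a log axis, with adult bladders as circles, postnatal day 1 bladders as squares and the whole newborn pool as a diamond. For Irf1, Ifih1, Ifit3, Gbp2 and Trim21 the 3 adult points lie to the right of all 3 postnatal day 1 points, while in the Ifitm genes the stages overlap.

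On the chosen probe sets, the 4 receptor genes were above the array median on all 7 arrays and did not differ detectably between the stages. Other probe sets were above it on 1 array for Ifnar1, on 0 and 7 arrays for Ifnar2 and on 4 arrays for Ifngr2. None of these passed between the stages. Ifnar1, a chain of the type I interferon receptor, gave 1501, 1546 and 1147 in adult bladders, 1727, 1360.0 and 1427 in postnatal day 1 bladders and 1626 in the whole newborn pool. Its partner Ifnar2 gave 3148, 3832 and 3351 in adult bladders, 4579.6, 2830.4 and 3091 in postnatal day 1 bladders and 3756 in the pool. For both chains the groups overlapped, at log2 differences between the stages of -0.11 ± 0.27 and 0.00 ± 0.26 (SE, adjusted p = 0.898 and 0.997). Ifngr1, the chain of the interferon gamma receptor that binds the ligand, gave 3266, 1569 and 2287 in adult bladders, 3301, 3749 and 2838 in postnatal day 1 bladders and 2082 in the pool. Ifngr2, its signalling partner, gave 692, 1227 and 797 in adult bladders, 1674, 1088 and 1192 in postnatal day 1 bladders and 1478 in the pool. On the chosen probe sets, both gamma chains had the lowest single value in an adult bladder, with overlapping groups. Their log2 differences were -0.52 ± 0.31 and -0.53 ± 0.33 (SE, adjusted p = 0.465 and 0.487). On the other Ifngr2 probe set the lowest value, 34.8, was in a newborn bladder, and the stages overlapped (0.10, adjusted p = 0.976).

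Among the 7 transcription factors Irf1 was the one that passed the test. Irf1, an activator that interferon gamma induces and that acts on antigen presentation genes, gave 2680.2, 3309 and 3631 in adult bladders, 1119, 886 and 792 in postnatal day 1 bladders and 1468 in the whole newborn pool. The lowest adult value was above both the highest newborn bladder value and the pool, and the stages differed by 1.73 ± 0.27 on the log2 scale (SE, adjusted p = 0.0152). Irf2, which competes with Irf1 for the same sites, gave 832, 784 and 574 in adult bladders and 1163, 721 and 682 in postnatal day 1 bladders, which overlapped (log2 difference -0.19, adjusted p = 0.846). Irf8, a factor of macrophages and dendritic cells, gave 1396, 1706 and 1423 in adult bladders, 717, 678 and 1136 in postnatal day 1 bladders and 1125 in the pool. Its groups did not overlap on this probe set, but the difference of 0.83 did not pass (adjusted p = 0.211). On the other Irf8 probe set the groups overlapped (0.97, adjusted p = 0.534). Irf7, the factor that amplifies type I interferon production, gave 230.4, 487 and 255 in adult bladders, 475, 113 and 244 in postnatal day 1 bladders and 599 in the pool, so postnatal day 1 replicate 1 lay just below the highest adult bladder while replicate 2 was the lowest array of all. Stat2, Irf9 and Irf3, the last being the factor that RNA sensors activate, had log2 differences of 0.14, 0.14 and 0.05 with overlapping groups. Stat2 was above the array median on 1 of the 7 arrays.

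Of the RNA sensors, Ifih1 had the largest stage difference of all 37 genes. Ifih1, which encodes the cytosolic sensor of long viral RNA also called MDA5, gave 4259.7, 7029.6 and 5404 in adult bladders, 1878, 679.8 and 1008 in postnatal day 1 bladders and 4697 in the whole newborn pool. The pool lay within the adult range and the newborn bladders lay below it, with a log2 difference between the stages of 2.27 ± 0.38 (SE, adjusted p = 0.0203). Ddx58, which encodes the sensor RIG-I, gave 2607, 3269 and 2967 in adult bladders and 2487, 2532 and 1796 in postnatal day 1 bladders. Every adult value was the higher on this probe set, yet the difference was 0.38 ± 0.25 (SE, adjusted p = 0.522). On the other Ddx58 probe sets the stages overlapped (0.54 and 0.55, adjusted p = 0.618 and 0.630). Dhx58, a regulator of both sensors, was below the array median on all 7 arrays.

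The Ifit genes, a family with members that bind foreign RNA and block its translation, lie together on chromosome 19. Adult replicates 1 and 3 were above adult replicate 2 in each of the 3 genes. Ifit3 gave 1199.6, 798 and 1478 in adult bladders, 198, 216 and 208 in postnatal day 1 bladders and 198 in the whole newborn pool. The 3 newborn bladders and the pool were nearly equal and all adult bladders were far above them, at a log2 difference between the stages of 2.20 ± 0.36 (SE, adjusted p = 0.0195). Ifit1 gave 666, 378 and 546 in adult bladders, 309, 23.0 and 206 in postnatal day 1 bladders and 457 in the pool. Newborn replicate 2 was dim beside its group, and the difference of 1.60 ± 0.62 did not pass (SE, adjusted p = 0.236). Ifit2 gave 4459, 2203 and 3805 in adult bladders, 2171, 2905 and 2149 in postnatal day 1 bladders and 1046 in the pool, with overlapping stages (log2 difference 0.48, adjusted p = 0.513). Adult replicates 1 and 3 are also the arrays with accessory gland transcripts, and the part of those glands in the Ifit values was not tested. In adult replicate 2 alone, against the 3 newborn bladders, Ifit3 was still higher by 1.73 on the log2 scale (no call was made with 1 adult array).

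None of the 3 Ifitm genes had a log2 difference above 0. They encode small membrane proteins that hold viruses in endosomes and lie next to one another on chromosome 7, and they were above the array median on all 7 arrays. Ifitm1, also known as a marker of germ cells and early embryonic tissue, gave 2531, 3798 and 2157 in adult bladders, 10217, 6181 and 3682 in postnatal day 1 bladders and 2577 in the whole newborn pool. Newborn replicates 1 and 2 were above every other array, but newborn replicate 3 was below the highest adult bladder, and the log2 difference of -1.15 ± 0.39 did not pass (SE, adjusted p = 0.174). Ifitm2 gave 4861, 10771 and 5792 in adult bladders, 13679, 12580.0 and 7877 in postnatal day 1 bladders and 5752 in the pool, at a difference of -0.72 ± 0.34 (SE, adjusted p = 0.348). Ifitm3 gave 4260.4, 9353 and 4249 in adult bladders, 7748, 6377 and 3731 in postnatal day 1 bladders and 4127 in the pool. Its stages did not differ detectably (log2 difference -0.04 ± 0.38, SE, adjusted p = 0.976), and adult replicate 2 was the brightest array. With arrays weighted by their quality, Ifitm1 was called lower in adult bladder (-1.40, adjusted p = 0.0389), in a fit where 4.73% of all genes were called lower.

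None of the 5 Oas and Mx genes, effectors that destroy viral RNA or trap viral particles, passed. Oas1a, an enzyme whose product activates RNase L, gave 590.3, 771 and 602 in adult bladders, 476, 91.1 and 428 in postnatal day 1 bladders and 1418 in the whole newborn pool, so all adult values lay above the newborn bladders and below the pool. Its stage difference was 1.09 ± 0.54 (SE, adjusted p = 0.363). Oasl2, a relative, ranged from 176 to 379 in adult bladders and from 44.7 to 584 in postnatal day 1 bladders, so the newborn range took in the whole adult range. Mx1 and Mx2 belong to the dynamin-like antiviral GTPases, but RefSeq annotates both mouse genes as transcribed pseudogenes. Both were below the array median on all 7 arrays, and Oas2 was above it on 1. Usp18, which strips Isg15 from proteins and dampens type I receptor signalling, gave 1657, 1511 and 1235 in adult bladders, 774, 667 and 392 in postnatal day 1 bladders and 385 in the pool. All adult values were above all others, and the difference of 1.24 ± 0.34 lay just outside the test (SE, adjusted p = 0.0999). The shared probe set of Isg15 and Gm9706, which is outside the 37, gave 215, 365 and 303 in adult bladders, 281, 389.7 and 456 in postnatal day 1 bladders and 447 in the pool, which overlapped (log2 difference -0.31, adjusted p = 0.774).

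The interferon-inducible GTPases, which coat and break vacuoles that hold microbes, had log2 differences above 0 in 5 of 5 genes. Gbp2, a guanylate-binding protein, gave 15554, 18914 and 13957 in adult bladders, 6325, 4782 and 1977 in postnatal day 1 bladders and 1638 in the whole newborn pool. The order of the groups was adult bladder, newborn bladder and pool with no overlap, and the stages differed by 2.02 ± 0.40 (SE, adjusted p = 0.0345). The call was lost without the mean-variance trend of the fit (adjusted p = 0.0734). A separate Gbp2 probe set gave 1.88 (adjusted p = 0.0309), and the probe set shown is of a type that can match related genes, so some of its signal may be that of other Gbp genes. Gbp3 gave 7555, 1869.6 and 5261 in adult bladders, 2581, 923 and 1042 in postnatal day 1 bladders and 572 in the pool. As in the Ifit genes, adult replicates 1 and 3 were the high arrays, adult replicate 2 lay below newborn replicate 1, and the difference of 1.60 ± 0.55 did not pass (SE, adjusted p = 0.185). Igtp, an immunity-related GTPase, gave 1470.3, 2246 and 1863 in adult bladders, 1570.5, 316 and 486 in postnatal day 1 bladders and 2802 in the pool. Newborn replicate 1 reached the adult range and the other two newborn bladders did not (difference 1.47 ± 0.52, SE, adjusted p = 0.197). Irgm1, a regulator of the family, and Iigp1, an effector on parasite vacuoles, had smaller differences of 0.53 and 0.50 (adjusted p = 0.459 and 0.631).

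Of the 6 other induced genes that were measured, Trim21 passed. Trim21, a cytosolic receptor that sends antibody-coated viruses to the proteasome, gave 3039, 1947 and 3037 in adult bladders, 930.0, 881 and 879 in postnatal day 1 bladders and 969 in the whole newborn pool. Newborn bladders and the pool were nearly equal and adult bladders were above them, at a stage difference of 1.50 ± 0.28 (SE, adjusted p = 0.0292). The call depends on the probe set and the scaling: the gene's other probe set differed by 0.26 (adjusted p = 0.815), the mean of both by 0.88 (adjusted p = 0.0859), and with arrays centred on their medians the adjusted p of the chosen one was 0.0733. Xaf1, a pro-apoptotic protein, gave 1626, 125 and 2102 in adult bladders, 154, 99.96 and 247 in postnatal day 1 bladders and 57.1 in the pool. On this probe set Xaf1 was high in adult replicates 1 and 3 and at the newborn level in adult replicate 2. Its difference of 2.04 ± 0.88 did not pass (SE, adjusted p = 0.288), and it was called without adult replicate 2 (3.19, adjusted p = 0.0204). The gene's other probe set did not have this pattern. It gave 197, 433 and 182 in adult bladders and 374, 163 and 72.4 in postnatal day 1 bladders (difference 0.44, adjusted p = 0.771). Adult replicates 1 and 3 are the arrays with accessory gland transcripts, and the part of the glands in the Xaf1 value was not tested. Rsad2, or viperin, which blocks viral replication, gave 5529, 2479 and 4147 in adult bladders, 4081, 1764 and 1228 in postnatal day 1 bladders and 9424 in the pool, with overlapping stages and its highest value in the pool (difference between stages 0.88, adjusted p = 0.4). Ifi35, an interferon-induced leucine zipper protein, gave 7486, 14488 and 8563 in adult bladders and 6171, 3950.0 and 6961 in postnatal day 1 bladders, without overlap (difference 0.81, adjusted p = 0.245). A dimmer Ifi35 probe set overlapped (0.28, adjusted p = 0.803), and a further probe set did not (0.70, adjusted p = 0.378). Isg20, an exonuclease, overlapped between the stages at a difference of 0.53, and Bst2, which tethers budding viruses, was below the array median on all 7 arrays.

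**Figure D3:**
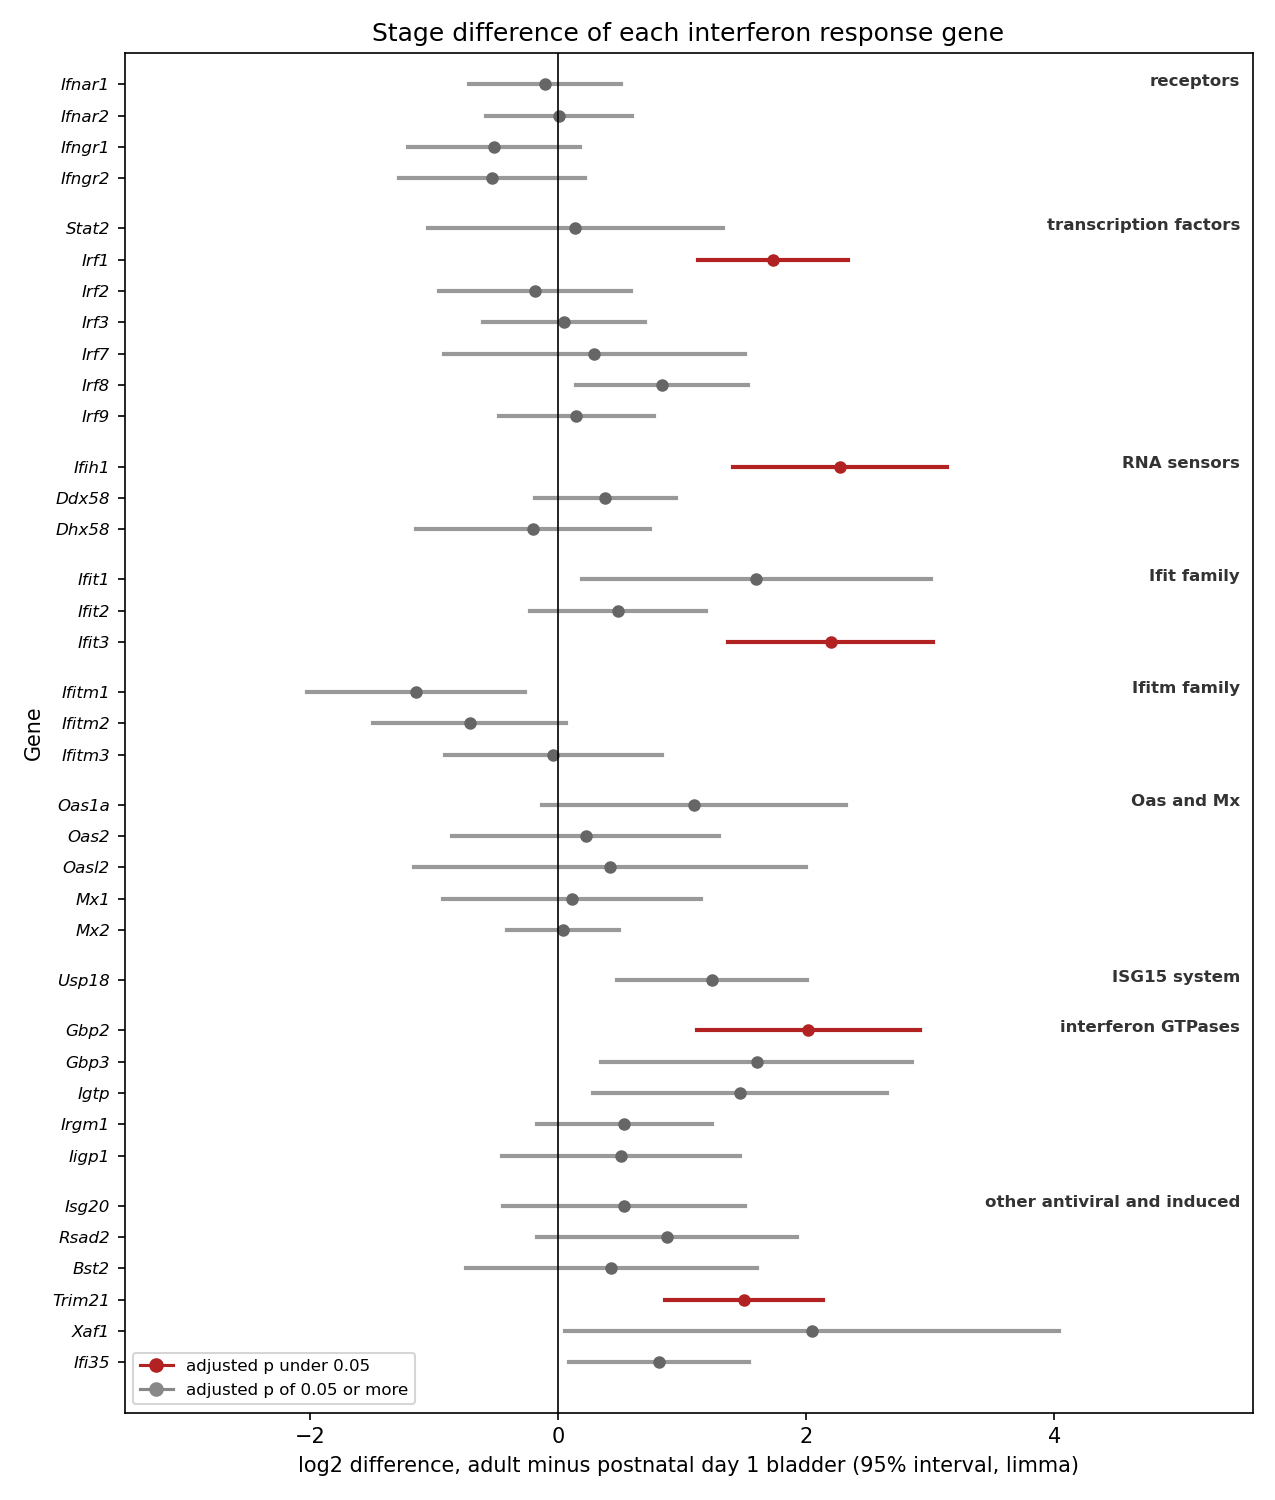
Stage difference of each interferon response gene, adult minus postnatal day 1 bladder, in log2 units, as a point with limma's 95% interval and grouped by role. Red points are the 5 genes that passed (adjusted p under 0.05), at 1.50 to 2.27, and the Ifitm genes and both interferon gamma receptor chains lie left of 0.

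The newborn bladders differed among themselves across the list. Postnatal day 1 replicate 2 was the lowest of the 7 arrays for 15 of the 37 genes, against 14.2% of all genes, and replicate 1 was the highest newborn bladder for 22, against 38.8% of all genes. Among adults, replicate 2 was the highest for 24 of the 37, against 44.0% of all genes. The mean level of the 37 genes, in log2(intensity + 49), was 10.33, 10.47 and 10.35 in adult bladders, 10.12, 9.54 and 9.70 in postnatal day 1 bladders and 9.99 in the whole newborn pool, so that newborn replicate 1 lay nearer the adults than the other two. The GTPases followed this pattern, with means of 11.58, 11.51 and 11.48 in adult bladders, 10.95, 9.83 and 10.11 in postnatal day 1 bladders and 10.61 in the pool. The Ifit genes averaged 10.64, 9.87 and 10.57 in adult bladders, 9.18, 8.58 and 9.03 in postnatal day 1 bladders and 9.01 in the pool. The Ifitm genes averaged 11.89, 12.84 and 11.90 in adult bladders, 13.33, 12.96 and 12.23 in postnatal day 1 bladders and 11.96 in the pool, with newborn replicates 1 and 2 above every adult array.

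All 7 general leukocyte markers and 8 of 10 macrophage markers had log2 differences between the stages above 0, against 47.5% of all genes. Every adult value was higher in 2 of the 7 and 3 of the 10, against 12.3% of all genes. Among the leukocyte markers, Cd52 passed (log2 difference 2.64 ± 0.55, SE, adjusted p = 0.0425), and among the macrophage markers Lyz2, or lysozyme, passed (2.55 ± 0.28, adjusted p = 0.00503). Summed intensities of the leukocyte markers were 7964 to 20293 in adult bladders, 4424 to 7004 in postnatal day 1 bladders and 19122 in the whole newborn pool. Those of the macrophage markers were 24044 to 46429 in adult bladders, 12485 to 19989.7 in postnatal day 1 bladders and 52433 in the pool. The highest adult sum of both lists came from adult replicate 2. By mean log2 level, this replicate was also the highest adult array for the receptors, transcription factors, RNA sensors, Ifitm genes, and Oas and Mx genes. It was the lowest for the Ifit genes and the other induced genes, and in between for the GTPases and Usp18. Markers of dendritic cells summed to 1000.1 to 1193 in adult bladders and 766 to 1071 in postnatal day 1 bladders, and those of T cells to 271 to 711 in adult bladders and 352 to 466 in postnatal day 1 bladders. Those of NK cells summed to 331 to 622 in adult bladders, 108 to 313 in postnatal day 1 bladders and 789.7 in the pool, so the sums did not overlap. Their mean log2 level did overlap, at 7.21 on adult replicate 3 and 7.24 on postnatal day 1 replicate 1. All 3 measured NK markers had log2 differences above 0 (median 1.07), but only 1 had every adult value higher. Each sum covers 3 genes, so the signal per gene was low on arrays with medians of 209 to 312. Markers of B cells and neutrophils had median log2 differences of -0.31 (1 of 3 above 0) and -0.36 (2 of 4 above 0). B cell markers summed to 178 to 372 in adult bladders and 246 to 426 in postnatal day 1 bladders. Neutrophil markers summed to 305 to 838 and 416 to 1322. None of the 6 dendritic cell, 5 T cell, 3 B cell, 3 NK cell, 4 neutrophil or 5 endothelial markers passed between the stages, against 4.13% of all genes. The part of leukocytes, NK cells included, in the stage difference of the interferon genes was not tested.

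**Figure D4:**
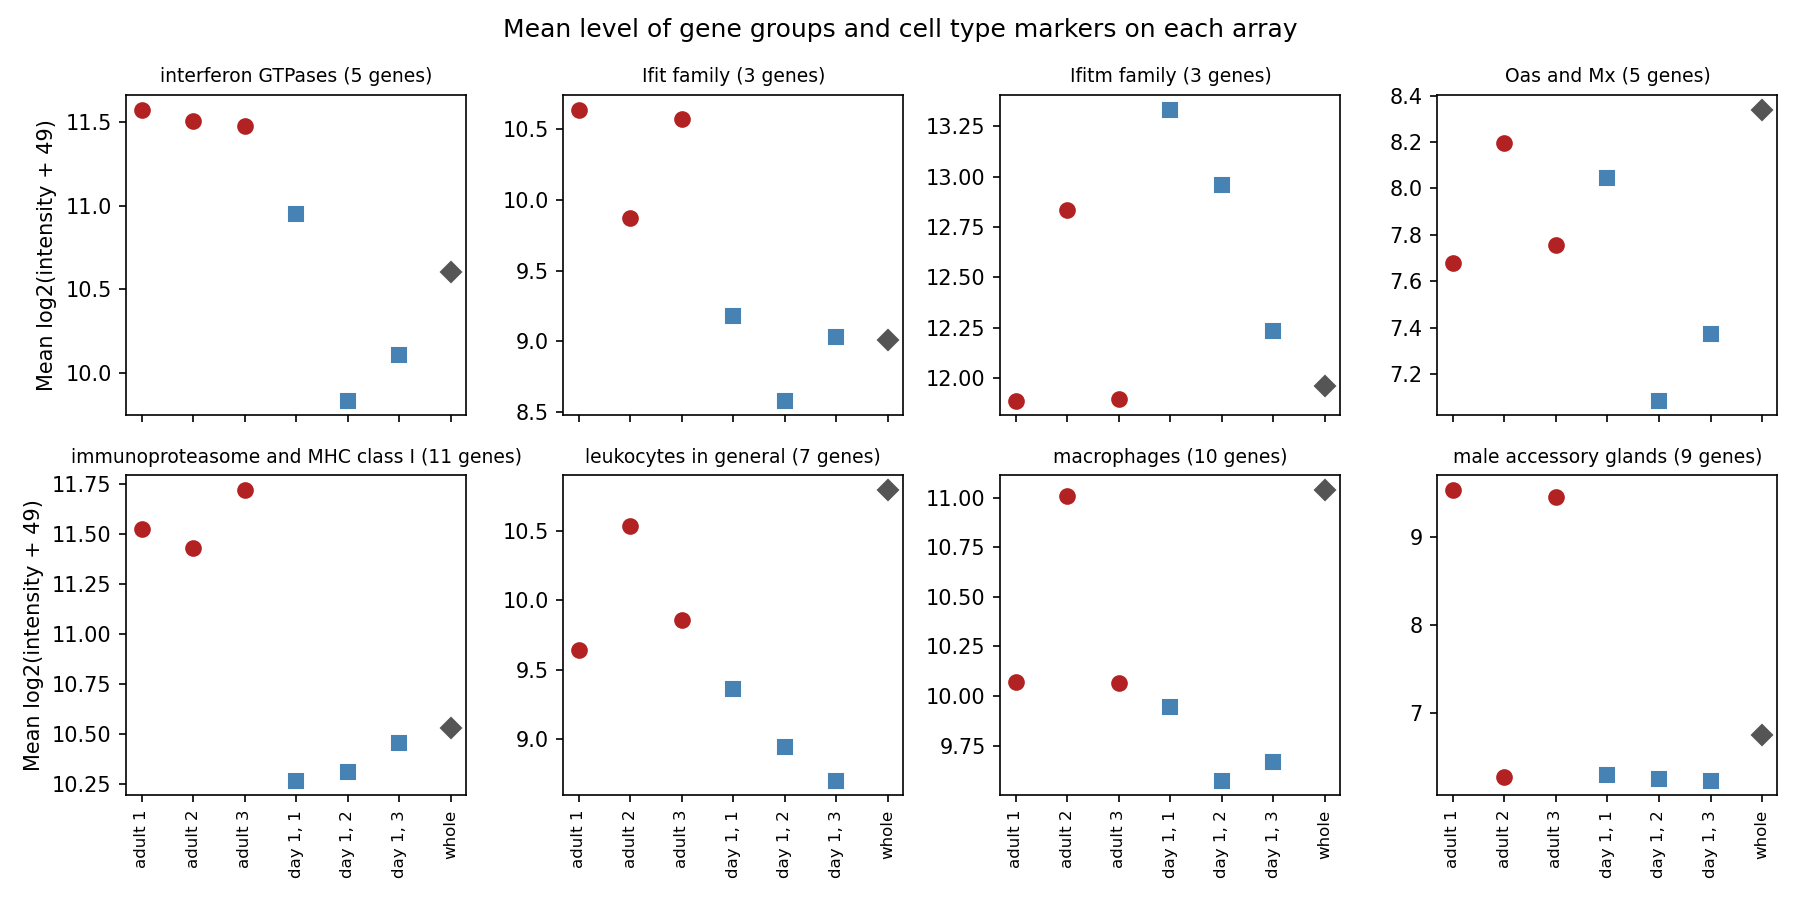
Mean log2(intensity + 49) of 4 interferon gene families, the immunoproteasome and MHC class I list, and 3 marker lists on each of the 7 arrays, adult bladders as circles, postnatal day 1 bladders as squares and the whole newborn pool as a diamond. Accessory gland markers are high on adult replicates 1 and 3 only, and each panel has its own vertical axis.

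Of the 5 other lists of the pathway, the immunoproteasome and MHC class I list held the most called genes. None of its called genes encodes an immunoproteasome subunit. Of 11 genes of the immunoproteasome and MHC class I pathway, which interferon gamma induces, 5 were higher in adult bladder and none lower. Of all genes, 1.75% were called higher and 2.39% lower. The median log2 difference of the 11 genes was 1.12. Nlrc5, the transactivator of MHC class I genes, gave 1511, 2043 and 2067 in adult bladders, 82.4, 155 and 250.5 in postnatal day 1 bladders and 206 in the whole newborn pool, without overlap (log2 difference 3.25 ± 0.40, SE, adjusted p = 0.00684). The MHC class I heavy chain genes H2-D1 and H2-K1 differed by 2.21 and 1.65 (adjusted p = 0.00861 and 0.0117), and the light chain gene B2m by 1.48 (adjusted p = 0.013). Class I heavy chains are close relatives, so their probe sets may share signal. Tapbp, which loads peptides, also passed (adjusted p = 0.036), while Tap1, the peptide transporter, was -0.46 and did not (adjusted p = 0.508). The mean level of the list was 11.53, 11.43 and 11.72 in adult bladders, 10.27, 10.31 and 10.46 in postnatal day 1 bladders and 10.53 in the pool.

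Of 29 other interferon-induced genes, 1 was higher and none lower in adult bladder, with a median log2 difference of 0.52. Of all genes, 1.75% were called higher and 2.39% lower, so 1 of 29 is near the share of all genes. The called gene was Gbp6, a further guanylate-binding protein, at a difference of 2.14 ± 0.36 (SE, adjusted p = 0.0211). Gbp6 gave 1655, 1711 and 1304 in adult bladders, 479, 209.5 and 298 in postnatal day 1 bladders and 1262 in the whole newborn pool. Next to it were Tor3a, Parp14 and Irgm2 at 1.95, 1.78 and 2.32 (adjusted p = 0.0503, 0.0607 and 0.0874), which did not pass. None of 7 ligands and receptor kinases, 6 negative regulators and 10 genes of nucleic acid sensing passed, against 4.13% of all genes. The ligands Ifnb1, Ifng, Ifna4 and Ifna2 were below the array median on all 7 arrays, with Ifng at 47.9, 12.4 and 98.0 in adult bladders and 42.5, 5.27 and 24.0 in postnatal day 1 bladders. Cish, an inhibitor of cytokine signalling, had the lowest adjusted p of the regulators (0.112), at a difference of -1.09.

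Set against the whole newborn pool, adult bladder was higher for 2 of the 37 genes, 5.41%, while 3.86% of all genes were called higher, 7.39% lower and 11.3% in either direction. This fit used all 7 arrays, and the single pool array was assumed to vary like the bladders. Gbp2 differed by 3.25 ± 0.56 (SE, adjusted p = 0.0102) and Ifit3 by 2.25 ± 0.53 (adjusted p = 0.037). Xaf1 and Gbp3 had large differences of 3.01 and 2.78 that did not pass (adjusted p = 0.198 and 0.0703). In 14 genes all adult values lay above the pool, against 28.4% of all genes, and in 10 all lay below, against 41.0%. At an unadjusted p under 0.05, 8 genes were higher, against 10.9% of all genes, and 0 lower, against 16.4% (27.4% in either direction). Gbp2 was the 1 gene called without adult replicate 1, adult replicate 3, postnatal day 1 replicate 1 or postnatal day 1 replicate 2, while 6 genes were called without adult replicate 2, where 5.94% of all genes were called higher.

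Postnatal day 1 bladder did not differ from the pool in any of the 37 genes by limma's adjusted p, while 2.15% of all genes were called higher, 5.47% lower and 7.62% in either direction. At an unadjusted p under 0.05, 1 gene (Ifit2, 1.15) was higher, against 8.91% of all genes. On the lower side 5 had such a p (Ifih1, Oas1a, Igtp, Iigp1 and Rsad2, at -2.16 to -1.56), which as 5 of 37 is near the 13.5% of all genes (22.5% in either direction). Ifih1, at -2.06 ± 0.54 (SE, adjusted p = 0.0654), had the lowest adjusted p. All 3 newborn bladders lay above the pool for 9 genes, against 28.7% of all genes, and below it for 13, against 38.1%. Without postnatal day 1 replicate 1, 3 genes were called lower (Ifih1, Igtp and Rsad2), with 4.31% of all genes, and without replicate 3, Gbp2 was called higher, with 1.97% of all genes. The comparisons of both stages with the pool share its 1 array.

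The level against the pool depended on the scaling, and the pool array had the highest median. As deposited, the median log2 difference was 0.18 for the 37 genes and -0.15 over all genes for adult bladder, and -0.11 against -0.09 for postnatal day 1 bladder. With arrays centred on their medians the same pairs were 0.85 against 0.52 and 0.58 against 0.59, and the genes called higher in adult bladder numbered 8, Irf1, Ifit2, Ifit3, Usp18, Gbp2, Gbp3, Trim21 and Ifi35, with 7.70% of all genes called higher and 4.60% lower. For postnatal day 1 bladder centring left none of the 37 genes called, with 4.48% of all genes higher and 3.31% lower. In mean level as deposited, 13 of the 37 genes ran from adult bladder through newborn bladder down to the pool, 7 from adult bladder through the pool to newborn bladder, 9 from the pool through adult to newborn bladder, 5 from newborn bladder through adult bladder to the pool and 3 from the pool through newborn to adult bladder. The 5 with newborn bladder on top were Ifngr1, Irf2, Ifitm1, Ifitm2 and Ifitm3, and for these as for most genes neighbouring groups in the order did not differ by the test. With arrays centred on their medians, adult bladder was on top for 23 genes, newborn bladder for 9 and the pool for 5, against 20, 5 and 12 as deposited.

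**Figure D5:**
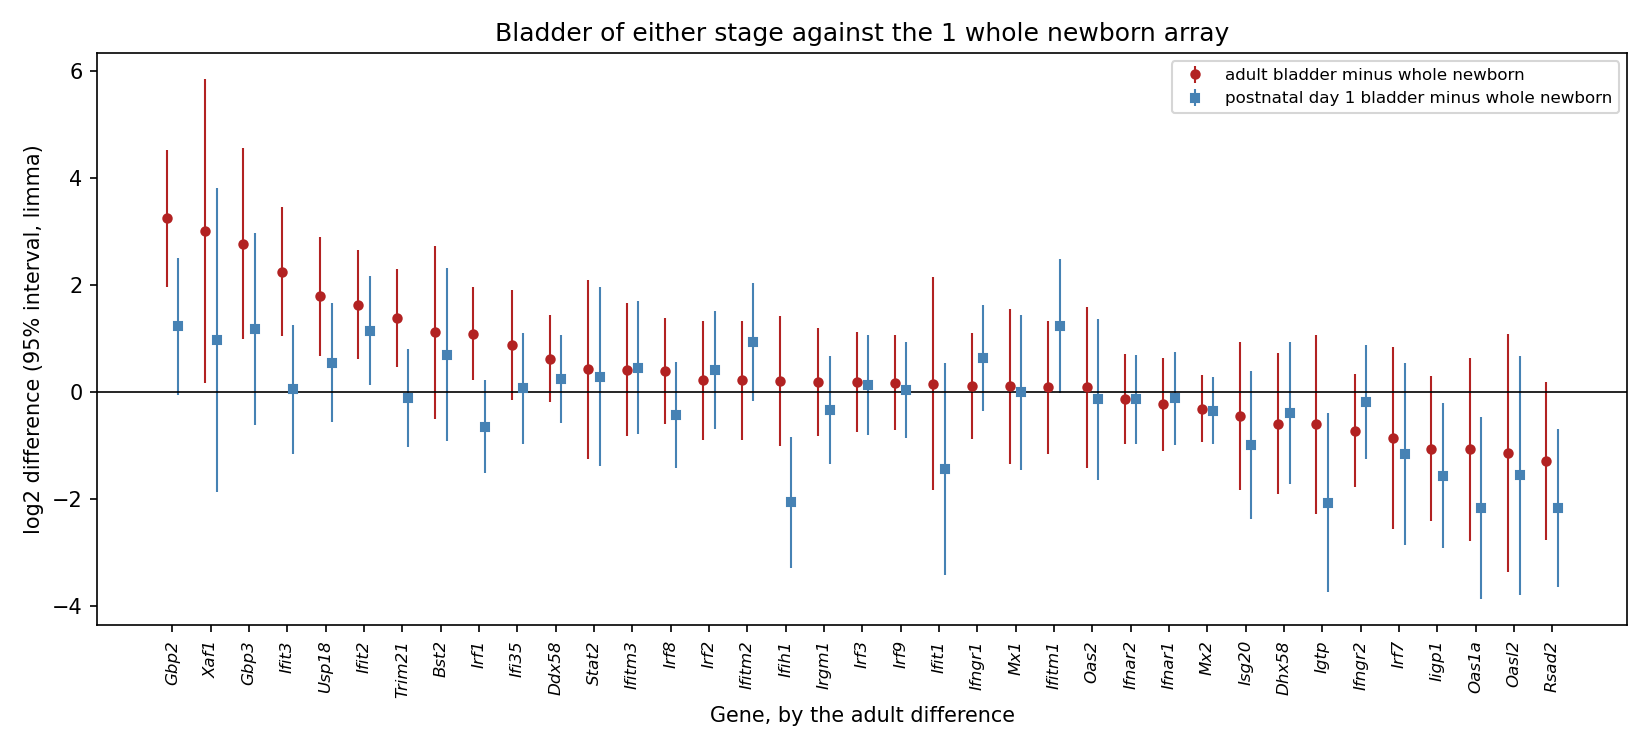
Log2 difference of adult bladder (circles) and of postnatal day 1 bladder (squares) from the single whole newborn array for each interferon response gene, with limma's 95% interval, ordered by the adult difference. Gbp2 is on the left at 3.25 for adult and 1.23 for newborn bladder, and Ifih1 is near 0 for adult bladder and at -2.06 for newborn bladder.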

How the data were processed

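RNA of 6 bladders and 1 whole newborn pool was amplified in 2 rounds and hybridized to 1-colour Affymetrix mouse arrays, per the labels' protocols. The deposited intensities are linear and carry no detection calls. The submitters' processing notes name GCOS, Affymetrix software, with no version, and how probes were summarised is not given in the sources used here. Trimmed by 2% at either end, all 7 arrays have the same mean, 1500.01 units, so the authors scaled them alike. The number of arrays limits the precision.

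The table holds 45101 probe sets, and 64 controls were left out. Of the 45037 tested, 34945 name 1 gene in the platform annotation, 932 several and 9160 none. A constant of 49, the rounded 20th percentile of all values, was added before log2 was taken, and no filter on low values was applied. Differences were tested with limma 3.58.1 (R 4.3.3) by a linear model and moderated statistics with a mean-variance trend (two-sided, Benjamini-Hochberg adjusted p under 0.05 over all 45037 probe sets), with 6 arrays for the stages and all 7 in 3 groups for the pool. The fit was also run on simulated arrays with planted changes and independent noise. That simulation held no differences between arrays in brightness or gland transcripts, and it gave the pool array the spread of the bladders. It therefore cannot show how single arrays or the single pool array affect the calls. Every gene of the list is named; intensities of every array are given for the genes that passed between the stages, the receptors, the largest differences from the pool and other genes described by role, and up to 4 genes of each other list are named by adjusted p. Genes and lists were chosen with earlier results of these data known. Alternatives were pseudocounts of 9 and 165, median centring, quantile normalization, a filter, no trend, array weights, the mean of a gene's probe sets, all 7 arrays in the stage fit, and arrays left out. Tables were handled with Python 3.11.15, pandas 2.3.3 and numpy 2.4.6.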

Additional observations from a re-analysis of the deposited data

How the results depend on the processing

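Between adult and postnatal day 1 bladder, the number of the 37 genes called higher lay from 4 to 7 under the pseudocounts, scalings, filter, variance models, probe set rule and fit of all 7 arrays, against 5, and 29 genes entered the fit with the filter. Of all genes, 1.07% to 4.58% were called higher in these fits, against 1.75%. The 7 came with array weights, where that share was 4.58%, and the share with the filter was 4.02%. Leaving out 1 array at a time gave 0 to 4, with 0.198% to 1.86% of all genes called higher. Leaving out adult replicates 1 and 3, an alternative chosen after seeing the data, gave a median log2 difference of 0.71, against 0.43. 1 gene was called lower with array weights (Ifitm1), with 4.73% of all genes called lower, against 2.39%. Without the stage arrays brightest in spike-ins, 1 was called lower (Ifitm2) and 4 higher (Ifit3, Gbp2, Trim21 and Xaf1). Of all genes, 1.51% were called lower and 1.21% higher there. For adult bladder against the whole newborn pool, against 2 genes called higher, 8 were called with median centring, 6 with quantile normalization, 7 with array weights, 5 with the mean of probe sets and 7 without the spike-in arrays; of all genes, 7.70%, 5.39%, 8.73%, 3.56% and 7.49% were called higher in these fits, against 3.86%. The count was 1 to 6 with 1 array left out, where 1.69% to 5.94% of all genes were called higher. The median log2 difference was then 0.85 with centring, 0.55 with quantile normalization and 0.55 without adult replicates 1 and 3, against 0.18. For postnatal day 1 bladder against the pool the median of -0.11 turned to 0.58 with centring, 0.29 with quantile normalization and 0.00298 without postnatal day 1 replicate 2, and over the single arrays left out it lay between -0.13 and 0.00298. Against 0 called, 2 were lower with array weights or the mean of probe sets, 2 were higher without the spike-in arrays, and with 1 array left out 0 to 3 were lower and 0 to 1 higher. Of all genes, 7.29% were called lower with array weights and 7.55% with the mean of probe sets, against 5.47%. Without the spike-in arrays 4.68% were called higher, against 2.15%. With 1 array left out, 3.74% to 6.12% were called lower and 1.28% to 3.4% higher. The cause of these changes was not tested; leaving out adult replicate 1 or 3 or any 1 newborn bladder also lowered the number of all genes called between the stages, and leaving out adult replicate 2 did not. Single-gene values were recomputed for the stage difference of all 37 genes and for the 2 genes called against the pool. Of these, 607 kept their side of the threshold, mostly in genes not called in the main fit. Of the calls, 38 were lost, 35 of them with arrays left out, and 8 were gained between the stages. Irf1 kept its stage call in 12 of 17 alternatives, Ifit3 and Gbp2 in 11, Ifih1 in 10 and Trim21 in 9. Against the pool, Gbp2 kept its call in 15 of 16 and Ifit3 in 11. Gains of other genes against the pool are not counted here. Genes below the array median, such as Mx1, Mx2, Dhx58 and Bst2, are limited by background signal. No paired analysis was possible because the labels link no adult bladder to a newborn bladder. The replicate numbers used here only follow the order of the samples in the series.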
